A study of Mus musculus with 2 samples.

Results

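The milk and luminal secretory genes are 10 genes picked by symbol: the casein genes Csn1s1, Csn2 and Csn3, the whey protein genes Wap and Lalba, the iron and siderophore carriers Ltf and Lcn2, the WAP-fold genes Wfdc2 and Wfdc18, and the immunoglobulin carrier Pigr. They are 10 of the 17333 genes with a read in either library, 9 of them listed in the Procr+ and 10 in the Procr- library. RNA sequencing was run on 2 libraries of mammary gland cells from mice, adult and virgin at 8 weeks, sorted fresh as Lin-, CD105+, CD31+ and Sca1+ and then divided by Procr, a receptor for protein C on the cell surface. There was 1 Procr-positive library (Procr+ below) of 9.22 M unique reads and 1 Procr-negative library (Procr- below) of 9.57 M, and strain, animal number and any pooling were not given in the sources used here. A single library per group gives no replicate check, so no p-values are printed.

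Secretory epithelium of the mammary gland makes milk proteins when prolactin, through its receptor and the kinase Jak2, activates Stat5, which binds palindromic sites in casein gene promoters. Caseins carry calcium phosphate in micelles, with kappa-casein on the surface. Whey proteins stay soluble, and alpha-lactalbumin makes galactosyltransferase a lactose synthase. Luminal cells also secrete defence proteins outside lactation, among them lactoferrin, lipocalin 2 and small proteins of the whey acidic protein fold.

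Both libraries were sorted with the same endothelial gate, but their markers differed. All 18 endothelial markers exceeded 2-fold in favour of the Procr+ library (median log2 ratio 3.33; Pecam1 at 712 against 52.7 RPKM, reads per kb of gene scaled to the library total). Of 18 luminal epithelial markers, 17 were at least 2-fold lower there (median −4.33), and Krt8 and Krt18, keratins of luminal cells, summed to 7345 reads against 164809 in the library labelled Procr-. Every value below stands beside these marker differences, whose part in the secretory gene differences was not tested. In bulk RNA, fewer cells of a type and less RNA per cell cannot be told apart. Procr itself was at 1321 RPKM in the Procr+ and 147 RPKM in the Procr- library.

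The secretory genes took more reads in the library labelled Procr-, by unequal amounts from gene to gene. The 10 genes summed to 2504 reads in the Procr+ library, 0.0272% of its total, and to 31161 reads, 0.326%, in the Procr- library. This is a 12.0-fold difference after scaling to the library total (11.5 to 12.5; here and below the brackets hold an exact 95% interval that covers counting error only). The Procr+ library was 2-fold or more lower for 7 of the 8 genes that reached 1 RPKM in at least 1 library, on the log2(RPKM + 1) scale, and higher for none. By the same rule 23.7% of the 12509 genes tested were lower and 13.1% higher. Where the counting interval itself had to lie beyond 2-fold, the counts were again 7 and 0, against 20.1% and 12.2% of the genes tested. Higher genes made up 35.7% of all 2-fold calls, against 59.6% after centring on the median of all genes and 51.5% with upper-quartile scaling. The median log2 ratio of the 8 genes was −3.52, and that of all genes tested was −0.38. The gene under 2-fold was Csn2. Wap and Pigr did not reach 1 RPKM in either library. Set against the median of the luminal markers in place of the library total, the median of the 8 genes was 0.81. The change of sign follows from the construction: the median of all genes tested was then 3.95, and 12282 genes were at least 2-fold higher.

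**Figure D1:**
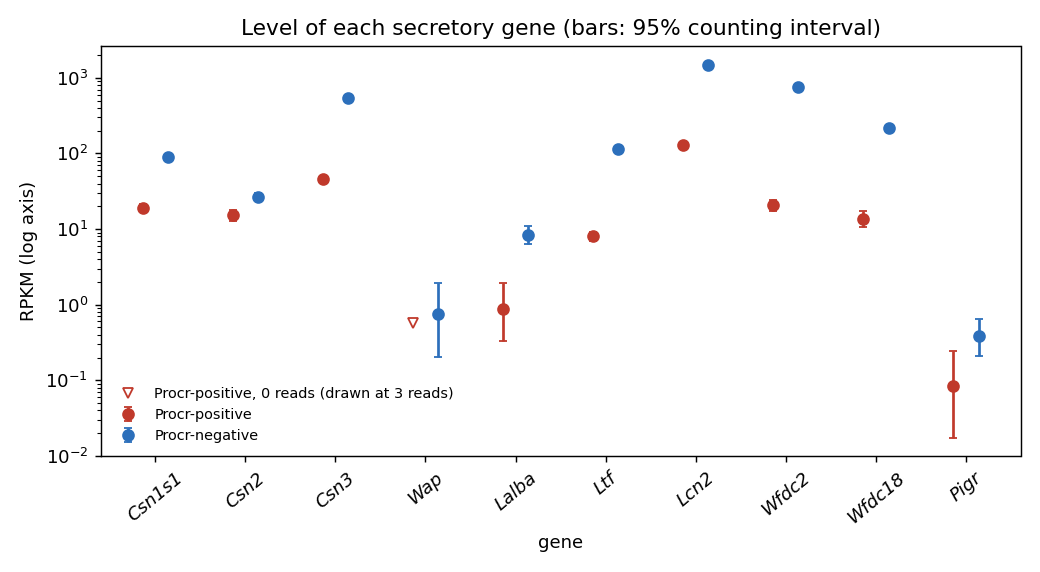
Level of the 10 secretory genes in RPKM on a log axis, red for the Procr+ and blue for the Procr- library, 1 library each, with bars for the 95% counting interval. Blue points lie above red ones for all genes with reads in both libraries, and the gap is smallest for Csn2, at 15.1 against 26.7 RPKM; Wap has 0 reads in the Procr+ library and is drawn there at the level of 3 reads.

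Csn1s1, which encodes alpha-S1-casein (chromosome 5, 87666208 to 87682578 in GRCm38), was at 19.2 RPKM from 254 reads in the Procr+ library and at 89.5 RPKM from 1226 reads in the Procr- library. It was thus 4.65-fold higher in the latter (4.06 to 5.35). Csn2, the gene of beta-casein (chromosome 5, 87692619 to 87699429), was at 15.1 RPKM from 156 reads and at 26.7 RPKM from 286 reads. Its difference of 1.77-fold (1.45 to 2.16) was the smallest of the 8 genes that reached 1 RPKM, and the interval of Csn2 did not meet that of Csn1s1. Csn3, the gene of kappa-casein (chromosome 5, 87925579 to 87932550), had 670 and 8240 reads, or 45.5 and 539 RPKM, and was 11.9-fold higher in the Procr- library (11.0 to 12.8).

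The make-up of the caseins therefore differed between the libraries. In RPKM, Csn3 exceeded Csn2 by 3.01-fold in the Procr+ library and by 20.2-fold in the Procr- library, a 6.71-fold change of the ratio (5.40 to 8.31). Csn1s1 exceeded Csn2 by 1.27-fold and 3.35-fold, a 2.63-fold change (2.06 to 3.36). Of all reads on the 10 secretory genes, Csn2 took 6.23% (5.32 to 7.25) in the Procr+ and 0.918% (0.815 to 1.03) in the Procr- library. The share of Csn3 was 26.8% and 26.4%, with overlapping intervals.

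These casein genes lie in a single cluster, and 2 of the other genes between Csn1s1 and Csn3 had reads. The span from the start of Csn1s1 to the end of Csn3 is 266 kb and holds 8 protein-coding genes in RefSeq, of which 5 were listed. Csn1s2a, a further calcium-sensitive casein, had 52 reads (6.13 RPKM) in the Procr+ and 124 reads (14.1 RPKM) in the Procr- library, a 2.30-fold difference (1.65 to 3.24). Its interval overlapped that of Csn2, and Csn2 exceeded it in RPKM by 2.46-fold and 1.89-fold (change of the ratio 0.769, 0.515 to 1.14). Csn1s2b had 0 reads and 1 read. Of the 4 caseins with reads in both libraries, the 1 at the far end of the cluster, Csn3, differed most.

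**Figure D2:**
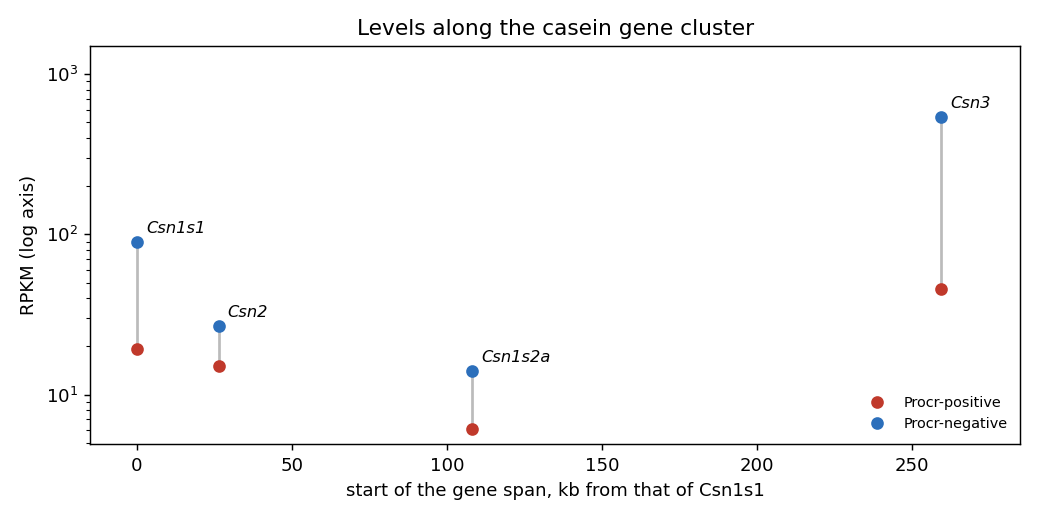
RPKM on a log axis of the casein genes with more than 5 reads in all against the start of each gene in kb from that of Csn1s1, red for the Procr+ and blue for the Procr- library. The vertical gap is widest at Csn3, at 45.5 against 539 RPKM, and narrowest at Csn2.

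The promoter windows of Csn1s1 and Csn2 are shown because these caseins had the smallest differences among the secretory genes with over 100 reads. The first window listed for Wfdc2 is shown because this gene had the largest difference. The search for TTCNNNGAA, the palindrome that Stat5 is known to bind, was made after the levels were known. Windows run from 250 bases before to 50 after the start, from RefSeq on GRCm38.p6, and capitals mark the match.
Csn1s1, chr5:87665958-87666257, plus strand: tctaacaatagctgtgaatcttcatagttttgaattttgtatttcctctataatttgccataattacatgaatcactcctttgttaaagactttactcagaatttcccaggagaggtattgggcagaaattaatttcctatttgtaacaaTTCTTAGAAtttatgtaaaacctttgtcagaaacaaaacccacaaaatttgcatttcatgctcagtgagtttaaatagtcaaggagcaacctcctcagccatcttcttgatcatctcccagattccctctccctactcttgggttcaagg
Csn2, chr5:87699376-87699675, minus strand: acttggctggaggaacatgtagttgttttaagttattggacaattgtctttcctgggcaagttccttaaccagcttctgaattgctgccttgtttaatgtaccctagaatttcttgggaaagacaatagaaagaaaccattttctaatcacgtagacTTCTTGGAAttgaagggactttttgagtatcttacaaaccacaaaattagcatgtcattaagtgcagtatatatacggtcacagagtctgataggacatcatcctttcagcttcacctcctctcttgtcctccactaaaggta
Wfdc2, chr2:164562465-164562764, plus strand: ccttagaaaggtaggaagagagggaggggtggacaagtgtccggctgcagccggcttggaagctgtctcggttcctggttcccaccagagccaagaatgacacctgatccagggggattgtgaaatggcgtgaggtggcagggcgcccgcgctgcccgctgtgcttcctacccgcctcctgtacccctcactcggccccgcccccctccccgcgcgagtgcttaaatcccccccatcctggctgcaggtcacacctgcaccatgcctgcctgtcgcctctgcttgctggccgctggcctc

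Of the 10 secretory genes, 9 matched a window, and 3 of these held TTCNNNGAA, a motif that reads the same on both strands. Csn3, the casein gene with the largest difference, had no window and was not searched. The match lay 100 to 92 bases before the start in Csn1s1 and 93 to 85 bases before it in Csn2, and from base 40 to 48 after it in Pigr. The windows of Wap, Lalba, Ltf, Lcn2 and Wfdc18 held no match. Wfdc2 has 2 windows, of which the first, shown above, held no match and the other was not searched. Of all 32851 windows, 8.30% held the motif, and 9.55% of the 27025 genes had a window that held it. Beyond these 10 genes, the windows of Csn1s2a and of Glycam1, a milk mucin gene, held it too. Glycam1 had 281 and 246 reads, at 48.8 RPKM in the Procr+ and 41.2 RPKM in the Procr- library, a ratio of 1.19 (0.995 to 1.41) in the other direction; it was named after its values were seen. A match describes these letters only.

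Of the whey protein genes, Lalba was low and Wap near the limit of detection. Lalba, which encodes alpha-lactalbumin (chromosome 15, 98480400 to 98482934), had 6 reads (0.888 RPKM) in the Procr+ and 59 reads (8.42 RPKM) in the Procr- library. The difference was 9.48-fold, with a wide interval of 4.10 to 26.9. Wap, which encodes whey acidic protein (chromosome 11, 6635483 to 6638654), had 0 and 4 reads. The counting interval of the Procr- over Procr+ ratio reached down to 0.636, so no difference of Wap was detectable at this depth.

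Of the carrier genes, Lcn2 was far more abundant than Ltf. Lcn2, which encodes the siderophore-binding lipocalin 2 (chromosome 2, 32384637 to 32387739), was at 128 RPKM from 1008 reads and at 1469 RPKM from 11982 reads. It had the highest level of the 10 genes in both libraries, and only 36 genes of the Procr- library had a higher RPKM. Its difference was 11.5-fold (10.7 to 12.2). Ltf, which encodes lactoferrin (chromosome 9, 111019292 to 111042766), was at 7.99 RPKM from 202 reads and at 115 RPKM from 3018 reads, 14.4-fold apart (12.5 to 16.7). Lcn2 and Ltf took 48.3% (46.3 to 50.3) and 48.1% (47.6 to 48.7) of all secretory gene reads in the Procr+ and Procr- libraries, and these intervals overlap.

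Neutrophils store both proteins in granules, so their other markers are given here. The 13 neutrophil markers other than Ltf and Lcn2 summed to 7.72 RPKM in the Procr+ and 11.9 RPKM in the Procr- library. Mpo, Ly6g and Retnlg were listed in neither library under these symbols. The granule gene Camp had 1 read and 0 reads, Ngp 5 and 2 reads and Elane 1 read and 2 reads. On the log2(RPKM + 1) scale, 1 of the 5 that reached 1 RPKM in either library passed 2-fold. This was S100a8, lower in the Procr+ library on 2 against 15 reads. Of all genes tested, 23.7% were lower and 13.1% higher. Itgam, with 55 against 18 reads, did not pass on that scale but was 3.17-fold higher in the Procr+ library by scaled reads (1.83 to 5.74). Mmp9, with 40 against 105 reads, did not pass either and was 2.53-fold higher in the Procr- library by scaled reads (1.74 to 3.74). The scaled-read intervals of Cxcr2 and S100a9 included no change. These 5 genes were named after their values were seen.

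The WAP-fold genes held the largest difference. Wfdc2, which encodes a small secreted protein with WAP four-disulfide core domains (chromosome 2, 164562715 to 164568510), had 134 reads in the Procr+ library and 5146 in the Procr- library. Its level was 20.5 against 760 RPKM, 37.0-fold apart (31.2 to 44.3), and only 5 of the 12509 tested genes had a lower log2 ratio than its −5.14. Wfdc18, a related gene (chromosome 11, 83709004 to 83711360), was at 13.6 RPKM from 71 reads and 219 RPKM from 1186 reads, 16.1-fold apart (12.7 to 20.8). The RPKM of Wfdc2 exceeded that of Wfdc18 by 1.51-fold in the Procr+ and 3.47-fold in the Procr- library, a 2.30-fold change (1.69 to 3.11). Together the pair took 8.19% (7.14 to 9.33) and 20.3% (19.9 to 20.8) of the secretory gene reads.

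Pigr, the receptor that carries polymeric immunoglobulins across epithelia (chromosome 1, 130826684 to 130852249), was under 1 RPKM in both libraries. It had 3 reads (0.0845 RPKM) in the Procr+ and 14 reads (0.380 RPKM) in the Procr- library, a ratio of 4.50 with an interval of 1.26 to 24.4. Reads covered 3.82% and 15.8% of its listed length.

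**Figure D3:**
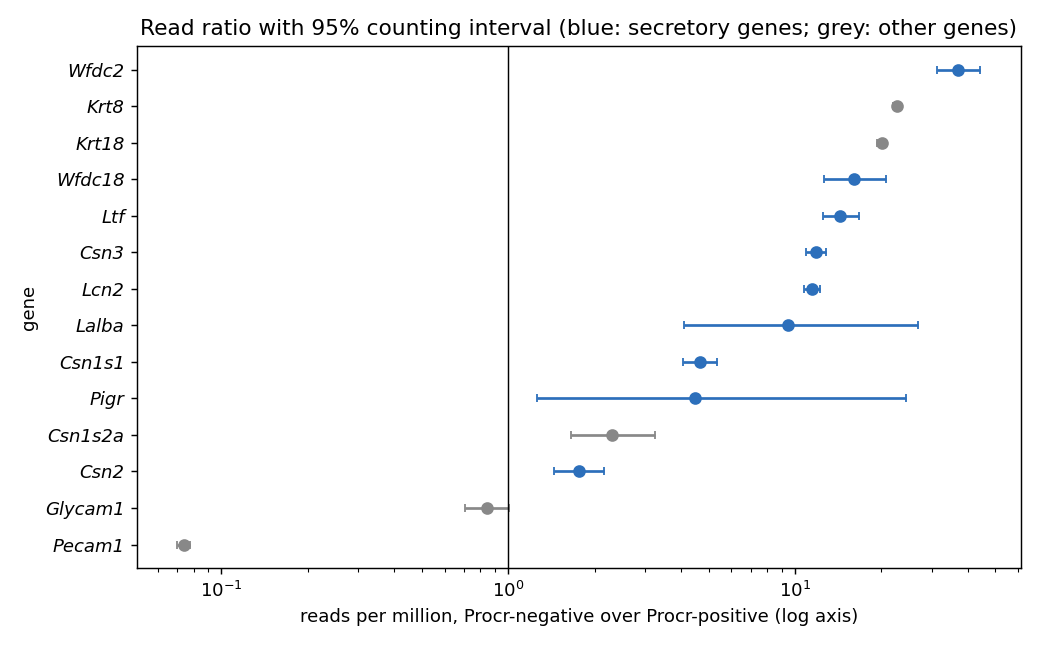
Ratio of reads scaled to the library total, Procr- over Procr+ library, on a log axis with the 95% counting interval, for the secretory genes with reads in both libraries (blue) and for other genes (grey). The secretory genes run from 1.77-fold at Csn2 to 37.0-fold at Wfdc2, and Wfdc2 is the only secretory gene beyond Krt8, which is at 22.7-fold.

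The order of levels, on the authors' gene lengths, was not the same in both libraries. In the Procr- library it ran Lcn2, Wfdc2, Csn3, Wfdc18, Ltf, Csn1s1, Csn2, Lalba, Wap, Pigr, and among neighbours in this order only the last pair had overlapping counting intervals. In the Procr+ library it ran Lcn2, Csn3, Wfdc2, Csn1s1, Csn2, Wfdc18, Ltf, Lalba, Pigr, Wap. There, the intervals of neighbours overlapped for Wfdc2 and Csn1s1, Csn1s1 and Csn2, Csn2 and Wfdc18, and Pigr and Wap. Farther apart in the order, Wfdc2 and Csn2, Csn1s1 and Wfdc18, and Lalba and Wap overlapped too. The level of Csn3 depends on its length in the authors' table. The listed 1597 bases were covered to 59.4%, or about 948 bases, in the Procr- library, where the median of 324 genes with a similar number of reads (within 2-fold) was 98.5%. The shortest coding Csn3 transcript of GENCODE has 991 bases, and on that length Csn3 would be at 869 RPKM in the Procr- and 73.3 RPKM in the Procr+ library. With the other lengths as listed, Csn3 would then lie above Wfdc2, at 760 RPKM, in the Procr- library. Lcn2, Csn3 and Wfdc2 would then lead in that order in both. Coding transcripts of Wfdc2 in GENCODE run from 397 to 849 bases, and its level was not rescaled, so this order is not settled. The ratio between the libraries does not depend on the length.

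Set against the luminal keratins, most secretory genes were not low in the Procr+ library, and neither were most of all genes tested (shares below). Reads of Krt8 and Krt18 together differed by 21.6-fold. Per 1000 such reads, Csn2 had 21.2 reads (18.0 to 24.9) in the Procr+ and 1.74 (1.54 to 1.95) in the Procr- library, a 12.2-fold difference (9.99 to 14.9) in favour of the Procr+ library. Csn1s1 had 34.6 against 7.44 reads, a ratio of 4.65 (4.04 to 5.34). Csn3 had 91.2 reads, against an interval of 48.9 to 51.1 (ratio 1.82, 1.68 to 1.98), and Lcn2 137 against 72.7 (1.89, 1.76 to 2.02). Ltf, at 27.5 against 18.3 (interval of the ratio 1.29 to 1.74), and Wfdc18, at 9.67 against 7.20 (1.34, 1.04 to 1.71), were closer to the keratins. Wfdc2 went the other way, with 18.2 reads per 1000 in the Procr+ and 31.2 in the Procr- library (ratio 0.584, 0.488 to 0.695).

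Thus 6 of the 10 genes had more reads per keratin read in the Procr+ library and 1 had fewer, and the intervals of Wap, Lalba and Pigr included no change. Of all 12509 genes tested, which leave out Wap and Pigr, 94.5% lay above the keratins and 0.584% below, since few genes differed as much as the keratins. For these shares the interval was that of the gene alone, with the keratin ratio taken as fixed. The counts of the secretory genes are a description against that background.

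**Figure D4:**
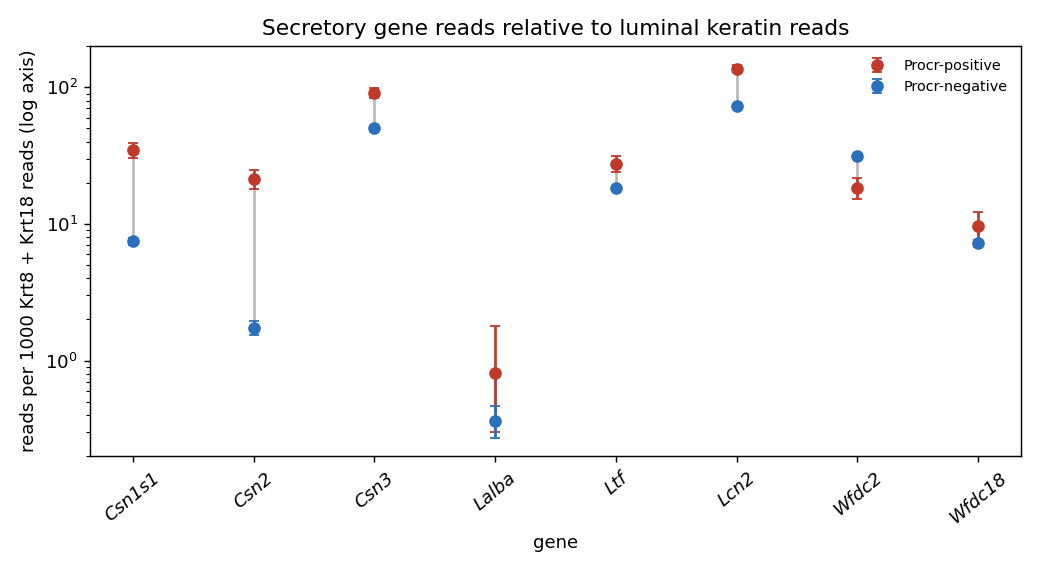
Reads per 1000 reads of Krt8 and Krt18 on a log axis for the 8 secretory genes with over 50 reads in all, red for the Procr+ and blue for the Procr- library, with the 95% counting interval. The widest gap is at Csn2, at 21.2 against 1.74, and Wfdc2 is the gene whose blue point lies above the red.

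Of 17 tested genes of the prolactin pathway and its regulators, 5 were at least 2-fold lower in the Procr+ library and 4 higher (median log2 ratio 0.51). Over all genes tested the shares were 23.7% lower and 13.1% higher, and the lower count is near that share. Prlr, the prolactin receptor gene, was at 2.47 RPKM from 235 reads against 68.2 RPKM from 6742 reads, 27.7-fold apart (24.3 to 31.6). The epithelial factor genes Ehf and Gata3 were 29.8-fold (22.8 to 39.8) and 17.1-fold (12.7 to 23.6) higher in the Procr- library. Elf5, a regulator of the alveolar fate, was at 0.636 RPKM from 13 reads against 7.17 RPKM from 152 reads (11.3-fold, 6.40 to 21.7). The fifth, Erbb4, had 0 and 46 reads. Stat5a, at 38.6 and 26.7 RPKM, and Stat5b, at 23.0 and 13.1 RPKM, lay within 2-fold. Jak2 was 4.96-fold higher in the Procr+ library (4.77 to 5.15), and the others there were Socs2, Hif1a and Cebpb. Jak2, Erbb4, Socs2, Hif1a and Cebpb were named after their values were seen, to complete these counts. Prlr, Gata3, Elf5 and Ehf are also on the luminal marker lists.

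Other milk proteins were at least 2-fold lower in the Procr+ library in 10 of 16 cases and higher in 3 (median −1.89), beside 23.7% and 13.1% of all genes tested. Spp1, the osteopontin gene, was at 65.5 against 795 RPKM (12.1-fold, 11.3 to 13.0), and Trf, the transferrin gene, at 82.7 against 739 RPKM (8.93-fold, 8.50 to 9.38). Folr1, a folate receptor gene, rested on 9 and 163 reads (17.5-fold, 8.97 to 38.9). The fatty acid carrier gene Cd36, also an endothelial gene, was 13.0-fold higher in the Procr+ library (12.4 to 13.6), with Xdh and Lpl, named after their values were seen.

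Of 11 lactose synthesis genes, 4 were at least 2-fold lower in the Procr+ library and none higher (median −0.30), and 2 were lower once centred on the median of all genes. Among them were the hexokinase gene Hk2 (4.49-fold, 3.82 to 5.32), Pgm2 and Ugp2. B4galt1, the partner of alpha-lactalbumin, was not among them, with 1915 and 1606 reads, and was named after its values were seen. Of 16 milk fat genes, 4 were lower and 1 higher (median −0.27), and 2 were lower once centred. Cidea was at 0.932 against 9.97 RPKM, and the lipogenic factor gene Srebf1 at 9.21 against 33.8 RPKM (3.67-fold, 3.27 to 4.13). The elongase gene Elovl5 was 5.01-fold higher in the Procr+ library (4.43 to 5.66). The medians of both lists were near that of all genes tested, and the milk fat count was near the 23.7% of all genes that were lower; 13.1% of all genes were higher.

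Other defence genes also differed. Of 14 tested antimicrobial and acute-phase genes, 10 were at least 2-fold lower in the Procr+ library and 3 higher (median −2.18), beside 23.7% and 13.1% of all genes tested. Hp, the haptoglobin gene, was at 6.60 against 106 RPKM (16.1-fold, 12.9 to 20.3), and Chi3l1, a chitinase-like protein gene, at 45.2 against 351 RPKM (7.76-fold, 7.17 to 8.40). Reg3g and Saa1 rested on 5 and 4 reads in the Procr+ library against 132 and 100 reads. The 3 higher genes, named after their values were seen, were Pglyrp1 and the lysozyme genes Lyz1 and Lyz2, near-identical copies whose reads may be split. In the WFDC family, 6 of 8 tested genes were lower and none higher (median −2.18), Wfdc2 and Wfdc18 included. Under the symbols searched, 13 of its 24 genes were listed in neither library, and a gene listed under an older symbol would be missed. Slpi, a secreted protease inhibitor gene, was at 38.9 against 251 RPKM (6.44-fold, 5.72 to 7.26), and Wfdc3 had 3 and 48 reads.

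Among genes that move immunoglobulins through cells, 3 of 6 were at least 2-fold lower in the Procr+ library and 2 higher (median −1.003), beside 23.7% and 13.1% of all genes tested. Rab25, an epithelial recycling GTPase gene, was at 2.66 against 68.9 RPKM. Mal2 was 29.5-fold (19.8 to 45.9) higher, and Egfr 6.37-fold (5.53 to 7.36) higher in the Procr- library. Fcgrt, which encodes the neonatal IgG receptor, was 5.64-fold higher in the Procr+ library (5.03 to 6.33), as was Yes1, named after its values were seen. The plasma cell genes Igj and Mzb1 had between 2 and 4 reads in each library. Other B and plasma cell markers had more reads in the Procr+ and Procr- libraries: Sdc1 1987 and 4224, Xbp1 1906 and 1947, and Cd79a 47 and 16. These marker genes were named after their values were seen.

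**Figure D5:**
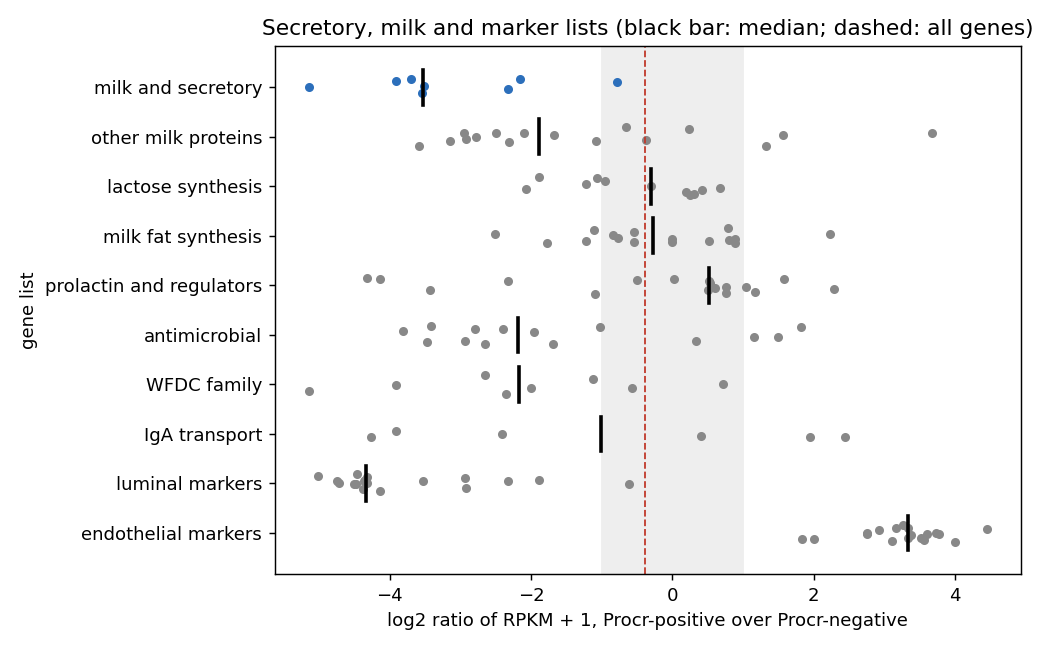
Log2 ratio of RPKM + 1, Procr+ over Procr- library, for each tested gene of 10 lists, with a black bar at the list median, a dashed line at the median of all genes (−0.38) and grey shading within 2-fold. The milk and secretory genes, in blue, have a median of −3.52, between the other milk proteins at −1.89 and the luminal markers at −4.33.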

How the data were processed

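Total RNA was extracted with Trizol, made into Illumina libraries, read from 1 end and aligned to mm10 with only unique hits kept, per the labels' protocols. Aligner, counter, annotation and any use of strand were not given in the sources used here. The deposited tables hold, for each gene, the authors' counts of unique reads, per the file headers, with genes without a read left out. They also hold the authors' RPKM, which equalled reads per kb of the listed length scaled to the library total for every gene, and the authors' coverage as a percent of that length. Libraries held 9219995 and 9565002 reads.

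Computed here with scipy 1.17.1 and pandas 2.3.3 were log2 ratios of RPKM + 1, over genes with at least 1 RPKM in 1 library or more, called from 2-fold. Ratios of reads scaled to library totals have exact conditional binomial (Clopper-Pearson) 95% intervals. RPKM values have exact Poisson intervals, shares of reads exact binomial ones, and ratios between genes exact conditional ones. Intervals and the floor of 3 reads cover counting error only, and PCR copies are not independent molecules. Unique mapping can underestimate genes with close copies. RefSeq on GRCm38.p6, the assembly behind mm10, gave 1-based gene spans for all 10 genes. In RefSeq 1 of them, Csn3, overlaps another gene, which had no reads.

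Procr+ and Procr- stand for the Procr-positive and Procr-negative libraries. The genes and lists were chosen with earlier results of these data known. Named are the 10 genes, the 2 to 4 genes of a list with the largest absolute log2 ratio, regulators by role, sort and marker references, and neighbours in the genome; others are marked in the text, and 1 gene that the rule names is not reported here. Other settings were pseudocounts, filters, scalings and the counting interval. The calculations were tested on simulated data.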

Additional observations from a re-analysis of the deposited data

How the results depend on the processing

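The number of secretory genes 2-fold lower in the Procr+ library was 7, and of those higher 0, with pseudocounts of 0.1 and 0.5 RPKM, without a filter, with at least 5 RPKM, with TPM, with upper-quartile scaling, as scaled reads with a prior of 1 read, centred on the median of all genes, and where the counting interval had to exclude 2-fold. Centring on the luminal marker median gave 0 lower and 3 higher secretory genes, and 3 lower and 12282 higher among all genes. It turned the log2 ratios of Csn2 to 3.55, Csn1s1 to 2.17, Lalba to 2.02, Lcn2 to 0.83, Csn3 to 0.80, Ltf to 0.64 and Wfdc18 to 0.42. The median of the secretory genes turned to 0.81, while Wfdc2 stayed negative at −0.81. These turns follow from the construction, since the luminal median is lower than the log2 ratios of the genes that turned. The median was −2.91 without a filter, which adds Wap and Pigr, −3.14 centred on all genes and −3.19 with upper-quartile scaling. Centring on all genes left 1644 lower genes in all, 2 of the lactose list and 2 of the milk fat list. With all luminal markers as the reference in place of the keratins, 5 genes in place of 6 had more reads in the Procr+ library, and the interval of Wfdc18 then included no change. No paired analysis was possible because each group has 1 library. Depth limits Wap, Pigr and Lalba, with 0, 3 and 6 reads in the Procr+ library.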

Other observations

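The counts of marker genes that follow stand beside 23.7% of all genes tested at least 2-fold lower in the Procr+ library and 13.1% higher. Of 11 tested markers of hormone-sensing luminal cells, 9 were at least 2-fold lower in the Procr+ library and none higher (median log2 ratio −3.55). The growth factor gene Areg, a target of oestrogen signalling, was at 28.9 against 1409 RPKM, and Pgr, the progesterone receptor gene, had 18 against 1616 reads, an 86.5-fold difference (54.6 to 146). Of 11 markers of luminal progenitors and alveolar cells, 6 were lower and 2 higher (median −1.67). Aldh1a3, which marks luminal progenitors, was at 6.94 against 159 RPKM, and the pair above were Cd14 and Hey1, named after their values were seen. Of 11 basal and myoepithelial markers 1, Krt17 (named after its values were seen), was lower and 5 were higher (median 0.33), with Myh11, also a smooth muscle gene, at 117 against 11.6 RPKM. The keratin genes Krt5, at 9.21 against 14.2 RPKM, and Krt14, at 36.6 against 49.9 RPKM, lay within 2-fold. Trp63, with 20 against 79 reads, did not pass on the log2(RPKM + 1) scale. By scaled reads it was 3.81-fold higher in the Procr- library (2.31 to 6.57). Krt5, Krt14 and Trp63 were named after their values were seen. Of 10 fibroblast markers, 9 were lower (median −2.04), and of 12 pericyte and smooth muscle markers 11 were higher (median 2.66). Among 7 tested macrophage markers 1 was higher, near the share of all genes (median 0.32), among 7 adipocyte markers 4 (median 1.28), and among 5 B and plasma cell markers 2, with 1 lower (median 0.46).

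Genes next to the secretory genes differed in part from them. Ltf lay 12.1 kb from Ccrl2, which had 697 reads in the Procr+ and 130 in the Procr- library, 5.56-fold higher in the former (4.61 to 6.76), against a 14.4-fold difference of Ltf in the other direction. Rtp3, on the other side of Ltf, was 4.75-fold higher in the Procr+ library (2.52 to 9.76). The neighbours of Lcn2, 1110008P14Rik and Ptges2, were 1.97-fold (1.53 to 2.55) and 3.08-fold (2.27 to 4.24) higher in the Procr- library. Pigt, the nearest listed gene on one side of Wfdc2, was 1.80-fold higher there (1.59 to 2.04), while Wfdc3, on the other side, was 15.4-fold higher (4.97 to 77.4), in the direction of Wfdc2. Kansl2, next to Lalba, was 1.20-fold higher in the Procr- library (1.08 to 1.33). Wfdc17, beside Wfdc18, had 2 and 10 reads, and Fcamr and Faim3, which flank Pigr, had 7 reads or fewer in each library. The intervals of these 3 overlapped those of Wfdc18 and Pigr.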
